A study of Homo sapiens with 2 samples.

Results

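The clustered protocadherins were examined in RNA-seq of MOLM-13, an established line of human acute myeloid leukemia (AML) with a KMT2A::MLLT3 fusion. They were taken as the genes on chromosome 5 whose symbol has the form PCDHA, PCDHB or PCDHG followed by a number, with the C-type genes (PCDHAC, PCDHGC) included. This gave 54 of the 50868 genes in the deposited table, namely 16 alpha, 16 beta and 22 gamma genes, and 1 of the alpha genes, PCDHA14, is described in the table as a pseudogene. There were 2 libraries. The Vector library came from cells with the control lentivirus, and the other from cells labelled as over-expressing UNC5B (OE-UNC5B), a netrin receptor. According to the methods, the UNC5B construct is driven by the CMV promoter and carries a FLAG tag, mCherry and puromycin resistance, and transduced cells were selected with puromycin. Both libraries share the cell line, the serum-containing 1640 medium and the kit. Each group is a single library, so replicate error cannot be estimated, and an effect of the construct and a difference between 2 cultures cannot be told apart.

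Each clustered protocadherin is a cell surface cadherin. In neurons, combinations of these proteins give single cells an identity through binding between like molecules on neighbouring membranes. In the alpha and gamma clusters, each gene has its own promoter and its own large variable exon, which is spliced to a set of constant exons that all genes of that cluster share. Beta genes have no constant exons. Promoters are chosen under the control of DNA methylation, CTCF and cohesin.

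The shared part matters for every value given here, so the sequences that define it are shown first. In GENCODE 44 (GRCh38, plus strand), each of the 22 gamma genes ends in the same exons of 59, 89 and 2029 bases, 2177 bases in all. Each of 15 alpha genes, all but the pseudogene PCDHA14, ends in exons of 59, 89 and 2721 bases. The first pair of constant exons of each cluster is given below, since a read inside them names the cluster but no gene.
gamma constant exon 1, chr5:141494807-141494865: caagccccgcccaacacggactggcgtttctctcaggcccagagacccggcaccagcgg
gamma constant exon 2, chr5:141505393-141505481: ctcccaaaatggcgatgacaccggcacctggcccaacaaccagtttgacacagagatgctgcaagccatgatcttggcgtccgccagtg
alpha constant exon 1, chr5:140978949-140979007: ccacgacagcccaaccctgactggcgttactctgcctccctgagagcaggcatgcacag
alpha constant exon 2, chr5:140982475-140982563: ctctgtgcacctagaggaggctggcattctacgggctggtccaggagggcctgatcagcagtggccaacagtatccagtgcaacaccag
The first constant exons of alpha and gamma have equal lengths and are identical at 39 of 59 positions, and the second ones at 29 of 89. A read across the junction from a variable exon does name the gene. The junctions below hold the last 20 bases of the variable exon in lower case and the first 10 bases of the gamma constant exon in capitals, for the gamma genes with the most reads and for PCDHGB6.
PCDHGB7: ataagaagattcttaaacagCAAGCCCCGC
PCDHGC3: agagcgcccctcccggacagCAAGCCCCGC
PCDHGA11: gtgacccgacaagtaatcagCAAGCCCCGC
PCDHGA1: aaaaggaaccattttctcagCAAGCCCCGC
PCDHGB6: atcctgagactctgacttcgCAAGCCCCGC
The capitals are the same in all lines and the lower-case part differs between genes. Between genes, the variable exon of PCDHGB7 was most like that of PCDHGB6, with 79.8% identical aligned bases, against 56.7% for PCDHGA11 and 52.4% for PCDHGC3. Of its 75-base words, 6.26% also occur in a transcript of another gene. For PCDHGC3 and PCDHGA11 this share was 0%, and the highest among gamma genes was 28.8%, in PCDHGB1.

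Over the merged exons of the gamma genes, the share of bases that also lie in exons of another gene ranged from 27.5% to 64.4%. For PCDHGB7 it was 43.9%, with 2785 bases of its own. For PCDHGC3 it was 40.1%, with 3253 bases of its own. Of the 16 beta genes, 5 had any shared exonic base, at most 9.54% of the gene. How the counting treated reads on shared exons is not given in the sources used here. Over the whole table, 275 tested genes had every exonic base inside exons of other genes on the same strand in GENCODE 44, and their reads summed to 53883 (Vector) and 56399. If the counting used similar exons, reads on shared bases were counted at least in part. Whether each such read went to a single gene is not known, and the division of gamma reads among gamma genes is uncertain. A cluster sum does not depend on this division where each shared read was counted for a single gene, which is not known here. Shared reads that were dropped or counted for several genes could change the sum.

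**Figure D1:**
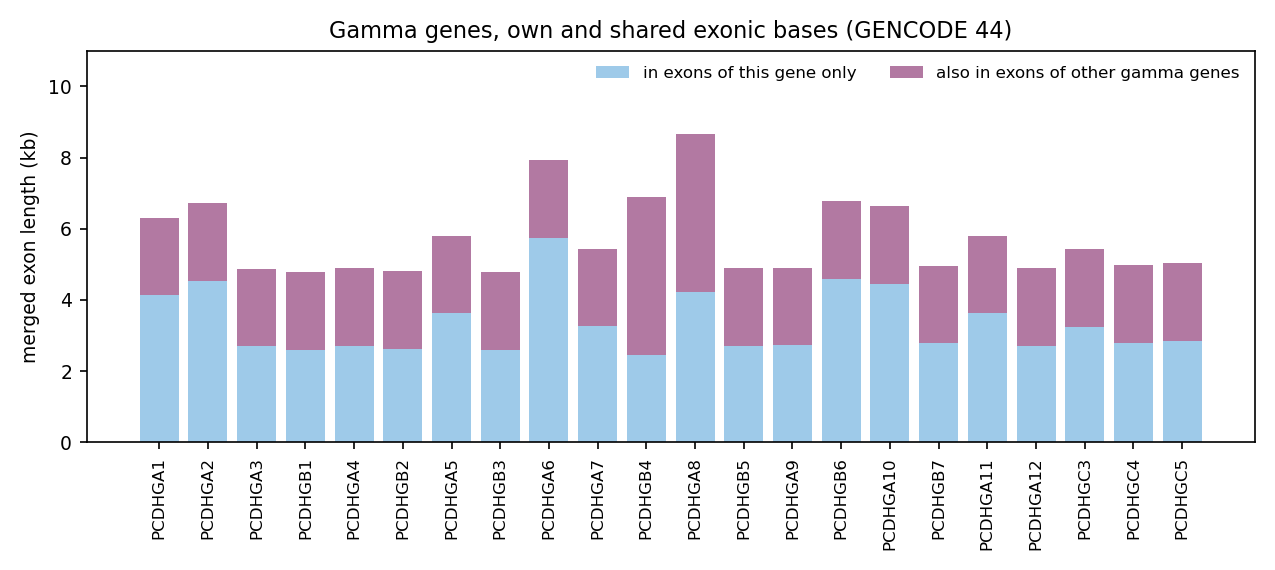
Merged exon length of the 22 gamma genes in kilobases (GENCODE 44), with bases in exons of that gene alone in blue and bases also in exons of other gamma genes in purple. Each gene carries at least the 2177 constant bases in purple, and PCDHGB4 has the highest shared part, 64.4%.

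The targeted gene was examined first. No read fell on UNC5B (chromosome 10, 71212570 to 71302864) in Vector (0) or OE-UNC5B (0), and over-expression cannot be seen in the counts. The name "library labelled OE-UNC5B" is therefore used, and every direction rests on the labels. The libraries held 13715566 (Vector) and 15637137 reads. A floor of 3 reads, the limit that a count of 0 allows, corresponds to 0.222 CPM (reads scaled to library size with TMM factors) in Vector and 0.189 CPM in the library labelled OE-UNC5B. All 10 myeloid and AML markers examined, such as CD33, SPI1 and FLT3, had reads in both libraries. Of them, LYZ and MPO were called lower, where a call needs both a 2-fold difference and a Benjamini-Hochberg adjusted p below 0.05 by the exact binomial test on reads. The 8 neuron markers, examined because neurons are known for clustered protocadherins, held 1.41 CPM in Vector and 1.26 CPM in the library labelled OE-UNC5B, and NEFL, RBFOX3, STMN2 and SYT1 were at 0 in both. The 6 fibroblast markers had 31 and 11 reads in sum, with COL1A1 called lower and DCN, PDGFRA and POSTN at 0 in both libraries. Of the 6 endothelial markers, CDH5, KDR, TEK and EMCN were at 0 in both, and PECAM1, which myeloid cells also express, gave nearly all of 121 and 92.6 CPM. The 6 HEK293T markers held 11 and 4 reads, with KRT8, GATA3 and PAX2 at 0 in both. The part of such cells in the results was not tested.

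In both libraries nearly all reads of the clustered protocadherins lay on gamma genes. The gamma cluster summed to 498 reads (Vector) and 548 reads (second library), which is 36.9 and 34.5 CPM. The beta genes held 24 and 25 reads, or 1.78 and 1.57 CPM. The alpha genes summed to 4 reads in Vector, 2 of them on the pseudogene PCDHA14 and 1 each on PCDHA1 and PCDHA3, and to 0 in the second library. A count of 0 allows up to 0.189 CPM for the alpha cluster there, and the alpha cluster was too shallow for a fold change. Of the 54 genes, 26 had 0 reads in both libraries, and these were 13 alpha, 8 beta and 5 gamma genes. Another 18 had reads but fewer than 10 over both libraries, with at most 5 reads of a gene in 1 library. This leaves 10 genes, 8 gamma and 2 beta, that passed the filter on low counts.

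**Figure D2:**
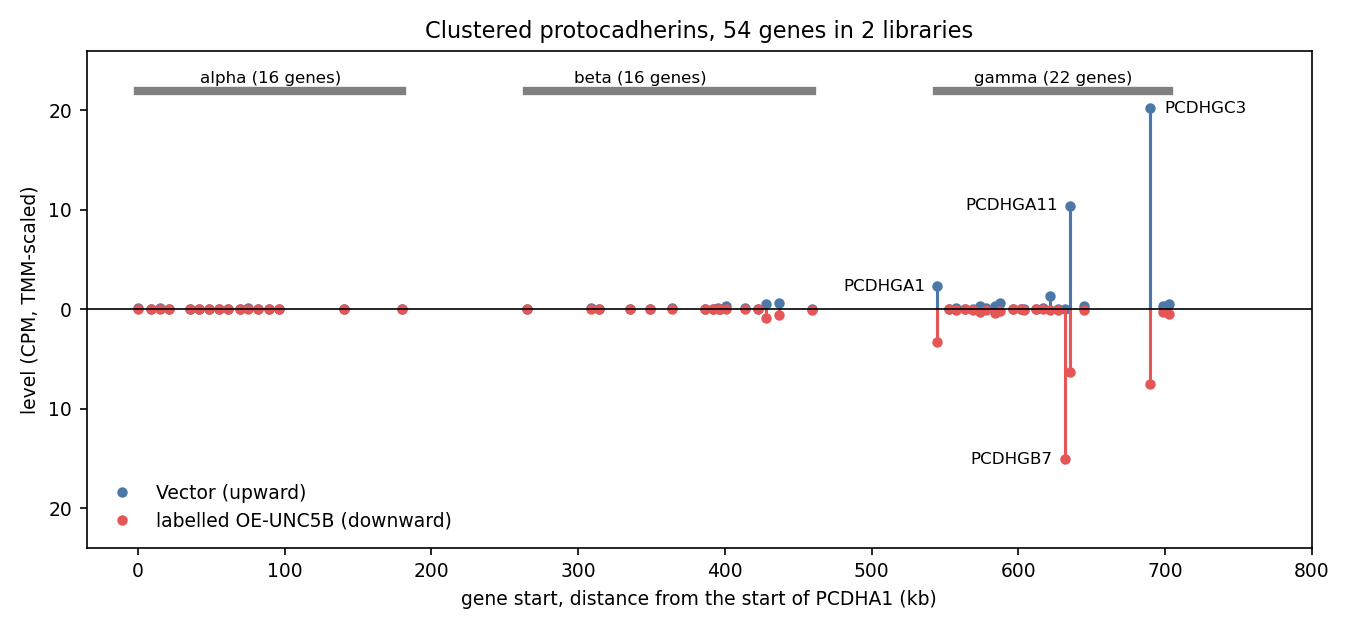
Level of each of the 54 genes in CPM against the distance of its start from that of PCDHA1 in kilobases, with Vector upward in blue and the library labelled OE-UNC5B downward in red. Alpha and beta genes lie near 0 in both libraries, while PCDHGC3, PCDHGA11 and PCDHGA1 have visible levels in both and PCDHGB7 only in the library labelled OE-UNC5B (15.1 CPM).

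The sum of the gamma cluster differed little between the libraries. Its log2 fold change, the library labelled OE-UNC5B against Vector, was -0.10, with a 95% interval from the reads of -0.28 to 0.08. The interval covers counting error only. The beta cluster had a log2 fold change of -0.18 (-1.05 to 0.69), which was -0.84 without PCDHB13, its gene with the most reads. All 54 genes together had one of -0.11 (-0.29 to 0.06). Over all tested genes the median was -0.007. Within the gamma cluster, however, the shares of single genes differed between the libraries, as follows.

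PCDHGB7 (ENSG00000254122), a B-type gamma gene from 141417645 to 141512979, went from 0 reads in Vector to 240 in the library labelled OE-UNC5B. More cells using a gene and more of its RNA per cell cannot be told apart in bulk RNA. Against the floor of 3 reads it was at least 67.9-fold higher, and the two-sided 95% interval from the reads, which allows a 0 count more than 3 reads, began lower, at a log2 fold change of 5.78. The adjusted p was 4.51e-63 from the exact binomial test on reads with Benjamini-Hochberg adjustment, a test that compares these 2 libraries and not the conditions. In the library labelled OE-UNC5B this gene alone held 43.8% of gamma reads (exact 95% interval 39.6 to 48.1%), while in Vector the same kind of interval for 0 of 498 reads ended at 0.738%. As a description outside the planned results, genes with at most 3 reads in 1 library and at least 100 in the other were counted. There were 4, PCDHGB7 among them, of the 15384 genes tested, or 0.026%. Genes with fewer than 100 reads in each library could not meet this rule. The other three were BIVM-ERCC5, ISY1-RAB43 and Z83844.1, which were named after their values were seen. Each had 0 reads in Vector. Of their exonic bases, 99.8% or 100% lie inside exons of other genes, against 43.9% in PCDHGB7, and the part of shared exons in these counts was not tested.

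PCDHGC3 (ENSG00000240184), a C-type gene from 141475947 to 141512979, went from 272 reads in Vector to 120 in the library labelled OE-UNC5B. It fell by 1.41 on the log2 scale (interval -1.74 to -1.10; adjusted p = 1.05e-19, exact binomial test on reads). The call was lost where edgeR's exact test assumed a coefficient of variation of 0.2 between libraries. It was the gamma gene with the most reads in Vector, with 54.6% of the cluster (50.1 to 59.1%), and held 21.9% (18.5 to 25.6%) in the other library. Sums over single gamma genes were formed after their values were seen and are given as a description. PCDHGB7 and PCDHGC3 together had 272 and 360 reads, a log2 fold change of 0.17 (-0.06 to 0.40). With PCDHGA11 and PCDHGA1 added, the 4 genes had 443 and 513 reads, a log2 fold change of -0.03 (-0.21 to 0.16).

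PCDHGA11 (ENSG00000253873), an A-type gene from 141421047 to 141512979, directly after PCDHGB7, had 140 (Vector) and 101 reads. Its log2 fold change was -0.71 (-1.09 to -0.33), short of the 2-fold threshold. PCDHGB6 (ENSG00000253305), from 141408021 to 141512979, had 18 (Vector) and 1 reads, a log2 fold change of -3.86 with a wide interval of -9.79 to -1.74 (adjusted p = 3.48e-05, exact binomial test on reads). This call was lost at an assumed coefficient of variation of 0.4, and the gene was not tested where at least 50 reads were required.

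PCDHGA1 (ENSG00000204956), the first gene of the cluster, from 141330571 to 141512981, had 31 and 52 reads, a log2 fold change of 0.50 (-0.16 to 1.20). PCDHGA6 (ENSG00000253731; 141373914 to 141512979) had 9 and 3 reads, with a log2 fold change of -1.68 (-4.34 to 0.18). PCDHGB3 (ENSG00000262209; 141370264 to 141512979) had 4 and 6 reads. PCDHGC5 (ENSG00000240764; 141489121 to 141512979) had 7 reads in each library. For these 4 genes the interval included 0. On the other 14 gamma genes there were 17 (Vector) and 18 reads. PCDHGB2, with 4 and 5 reads, and PCDHGC4, with 5 and 4, were just below the filter, and PCDHGB3, with 10 reads in all, was just inside it. PCDHGA12 had 4 and 2 reads, PCDHGA5 had 2 and 1 and PCDHGA3 had 1 in each. The pseudogene PCDHGB8P in the same region had 5 reads in each.

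By type, the A genes held 188 and 165 reads, the B genes 26 and 252, and the C genes 284 and 131. The log2 fold changes were -0.42 (-0.74 to -0.12) for A, 3.02 (2.45 to 3.68) for B and -1.35 (-1.66 to -1.05) for C. The value for B rests on PCDHGB7, with 0 and 240 reads. Of the other B genes, PCDHGB6 went the other way (18 and 1), PCDHGB2 (4 and 5) and PCDHGB3 (4 and 6) were near equal, and the rest had 0 reads. Without PCDHGB7 the whole gamma cluster would have 498 and 308 reads, a log2 fold change of -0.93 (-1.14 to -0.72). Without PCDHGC3 it would have 226 and 428 reads and a log2 fold change of 0.68 (0.45 to 0.92). The direction of the gamma sum therefore turns with the removal of a single gene, while the full sum stays near 0.

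**Figure D3:**
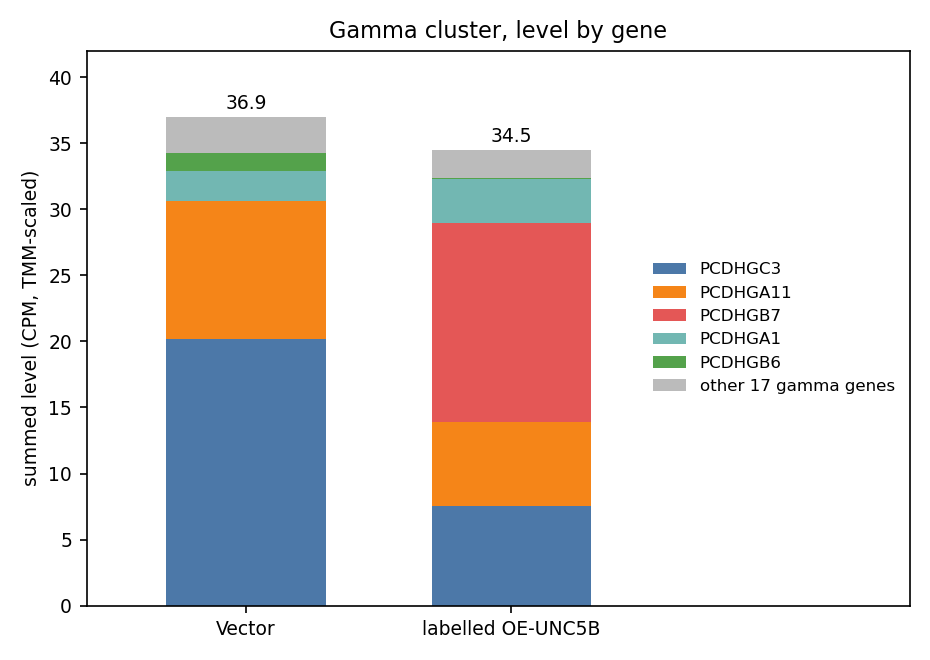
Summed level of the gamma cluster in CPM in the 2 libraries, divided by gene, with the total written above each bar. The totals are close (36.9 and 34.5 CPM), but PCDHGB7 takes 15.1 CPM in the library labelled OE-UNC5B and 0 in Vector, while PCDHGC3 takes 20.2 CPM in Vector and 7.55 CPM in the other.

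Both beta genes that passed the filter, which share no constant exons, lay next to each other toward the end of the beta cluster. PCDHB13 (ENSG00000187372; 141213919 to 141218979) had 7 (Vector) and 14 reads, a log2 fold change of 0.71 (-0.64 to 2.31). PCDHB14 (ENSG00000120327; 141222932 to 141227759) had 8 and 10 reads, a log2 fold change of 0.07 (-1.41 to 1.63). On the other 14 beta genes there were 9 reads in Vector, 4 of them on PCDHB9, and 1 read in the second library.

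In total, 1 of the 10 tested genes was called higher (PCDHGB7) and 2 were called lower (PCDHGB6 and PCDHGC3). Over all 15384 genes tested, 3.39% were called higher and 3.39% lower by this rule, 6.78% in all, and 9.94% passed the 2-fold change alone. All 3 called genes lie in the gamma cluster, where every gene shares exons and which held 8 of the 10 tested genes. The 2 tested beta genes had 21 and 18 reads over both libraries, so calls outside gamma were hardly possible. Of all tested genes found in GENCODE 44, 6.24% were called among those with no shared exonic base and 8.65% among those with any. Genes with all bases shared are a part of the latter, and 12.7% of them were called. Depth differed as well. At least 100 reads over both libraries were held by 134 of 275 genes with all bases shared and by 8870 of 11997 with none. A link between shared exons and calls was not tested. The median log2 fold change of the 10 genes was -0.08, with 5 above and 5 below 0.

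**Figure D4:**
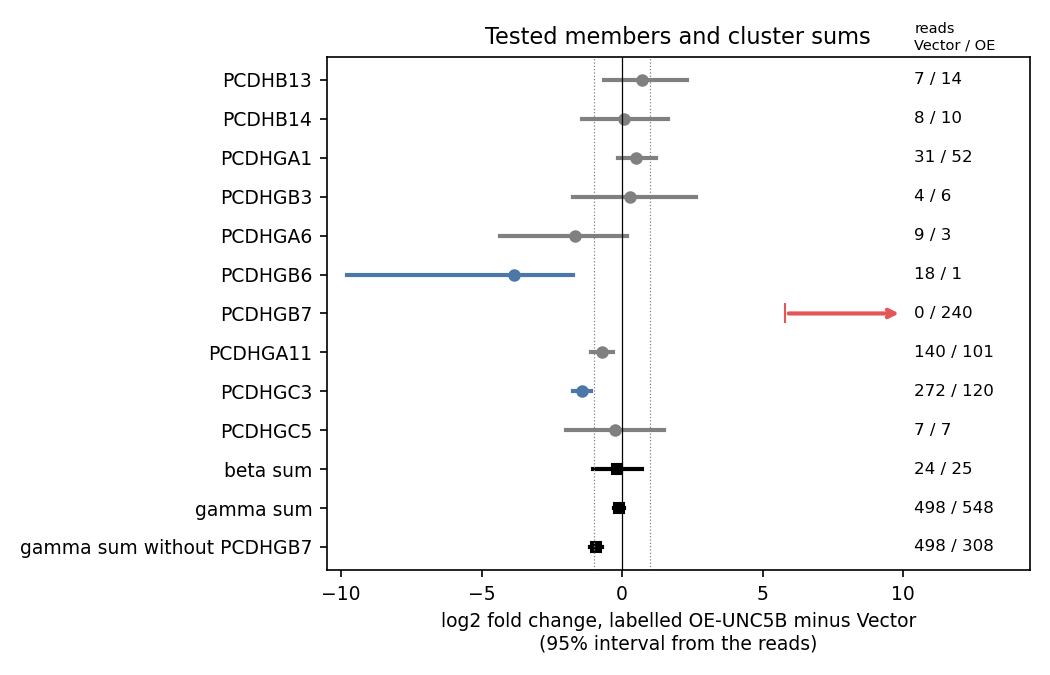
Log2 fold change of the 10 tested genes and of the cluster sums, the library labelled OE-UNC5B minus Vector, with 95% intervals from the reads; dotted lines mark 2-fold, red is called higher, blue called lower, grey not called and black a sum. The interval of PCDHGB7 begins at 5.78 and has no upper end, and the gamma sum lies at -0.10.

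**Figure D5:**
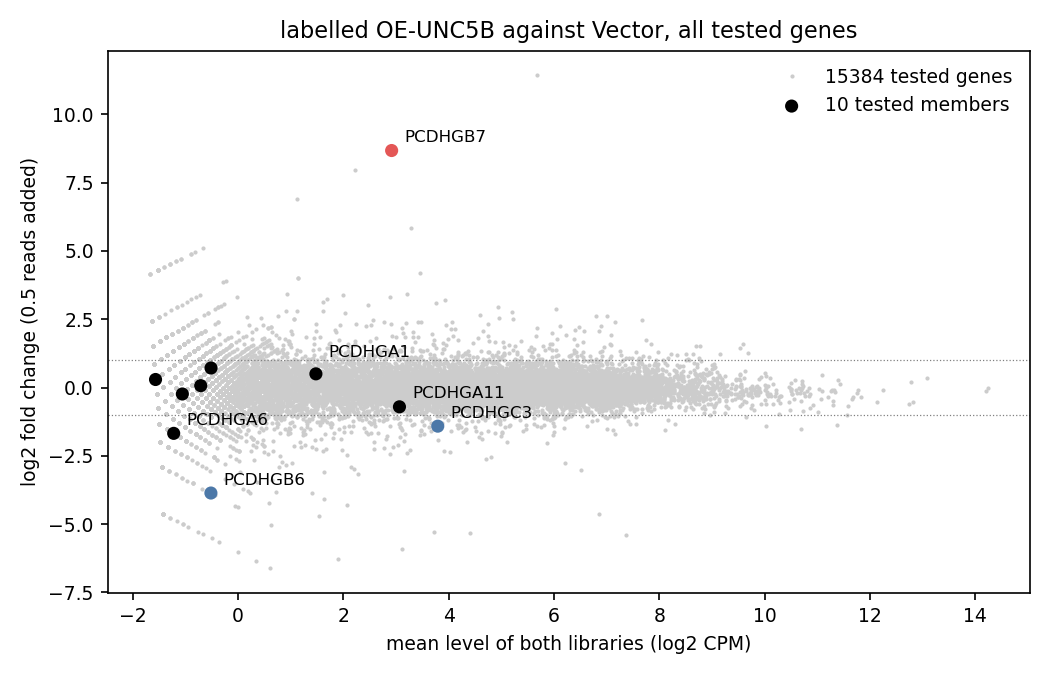
Log2 fold change (0.5 reads added) against the mean level in log2 CPM for the 15384 tested genes in grey and the 10 tested clustered protocadherins as large points, red where called higher, blue where called lower and black otherwise. PCDHGB7 stands above almost all genes of its level, at a height that depends on the reads added because Vector had 0 reads, and PCDHGB6 lies among genes of few reads.

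Levels between genes were compared per length, as reads per kilobase of merged exon scaled to the counted reads of the library. On this scale PCDHGC3 was highest in Vector (3.65), followed by PCDHGA11 (1.76), PCDHGA1 (0.359) and PCDHGB6 (0.194). In the library labelled OE-UNC5B the order was PCDHGB7 (3.09), PCDHGC3 (1.41), PCDHGA11 (1.11) and PCDHGA1 (0.528). There the shares of gamma reads of PCDHGC3 and PCDHGA11 (18.4%, 15.3 to 21.9%) overlapped in their counting intervals, so their order is not settled at this depth. In Vector, PCDHGC3 with 272 reads lay next to the median of tested genes (269), and with 120 reads it was below the median of 316 in the other library. PCDHGB7, at 0 reads in Vector, had 240 there, also below that median.

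The deposited FPKM gave another picture of the gamma sum. The length that these FPKM imply was 13263 bases for PCDHGC3 and 7550 for PCDHGB7, against merged exon lengths of 5430 and 4962 bases. Over 15198 tested genes the median ratio of implied to merged length was 1.39, and its median ratio to the sum of all distinct exons, with overlapping exons counted more than once, was 1. A read on PCDHGC3 thus adds less FPKM than a read on PCDHGB7. Summed FPKM of the gamma genes had a log2 ratio of 0.28, opposite in sign to the reads. Reads per kilobase of merged exon, also scaled to counted reads, summed to 6.46 in Vector and 6.56 in the other library, a near-equal level.

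The promoters of the 4 gamma genes with the most reads are shown because each gene is read from its own start. They come from RefSeq (GRCh38.p14, plus strand, 300 bases, most of them before the start), where 47 of the 54 genes had an entry. Capitals mark CGCT on either strand (AGCG when read on the plus strand), the core letters of the conserved element known from clustered protocadherin promoters, and neighbouring matches can overlap.
PCDHGB7, chr5:141417427-141417726: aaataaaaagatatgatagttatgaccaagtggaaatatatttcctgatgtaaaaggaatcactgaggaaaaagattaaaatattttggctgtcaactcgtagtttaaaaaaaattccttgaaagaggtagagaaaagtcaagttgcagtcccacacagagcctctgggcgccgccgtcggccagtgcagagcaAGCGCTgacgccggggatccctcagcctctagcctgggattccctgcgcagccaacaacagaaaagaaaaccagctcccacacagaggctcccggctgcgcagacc
PCDHGC3, chr5:141475716-141476015: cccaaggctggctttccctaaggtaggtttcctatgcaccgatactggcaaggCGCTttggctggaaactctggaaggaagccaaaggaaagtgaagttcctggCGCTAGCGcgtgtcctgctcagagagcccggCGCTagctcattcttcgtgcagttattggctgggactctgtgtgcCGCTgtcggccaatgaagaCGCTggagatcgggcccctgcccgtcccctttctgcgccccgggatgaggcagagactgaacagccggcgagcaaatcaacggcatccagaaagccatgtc
PCDHGA11, chr5:141420801-141421100: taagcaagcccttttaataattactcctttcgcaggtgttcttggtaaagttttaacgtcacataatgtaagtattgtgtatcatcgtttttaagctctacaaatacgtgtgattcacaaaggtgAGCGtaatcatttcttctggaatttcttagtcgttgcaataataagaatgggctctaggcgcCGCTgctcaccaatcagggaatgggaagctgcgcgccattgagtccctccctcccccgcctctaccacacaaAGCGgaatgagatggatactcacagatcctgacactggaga
PCDHGA1, chr5:141330264-141330563: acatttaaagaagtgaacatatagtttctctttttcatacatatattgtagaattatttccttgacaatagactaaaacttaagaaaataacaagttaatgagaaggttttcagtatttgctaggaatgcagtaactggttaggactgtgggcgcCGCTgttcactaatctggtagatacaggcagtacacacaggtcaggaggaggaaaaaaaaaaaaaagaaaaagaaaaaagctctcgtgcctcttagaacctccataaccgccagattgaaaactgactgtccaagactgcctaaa
The CGCT letters occurred 2 times in PCDHGB7, 6 in PCDHGC3, 3 in PCDHGA11 and 1 in PCDHGA1. Of the 47 promoters, 46 held them, as did 68.8% of 27305 promoters of all genes, so a match of such short letters is common. All 9 tested genes with an entry held them. The GC content was 59% in PCDHGC3, 47.7% in PCDHGB7, 44.3% in PCDHGA11 and 36.3% in PCDHGA1. A match of letters is not a measured binding site.

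Genes known to act on these clusters or on their products were counted next. Of 24 chromatin regulators, which include CTCF, cohesin and its loader, the methyltransferases and TET enzymes, all were tested and 0 were called. Over all tested genes 6.78% were called. The median log2 fold change of the 24 was 0.24, against -0.007 over all tested genes, and 20 of 24 lay above 0. CTCF, the DNA-binding factor at the promoters, had 1736 (Vector) and 2174 reads, a log2 fold change of 0.09. RAD21, a cohesin subunit, had 8473 and 15204 reads (0.61), and DNMT1, the maintenance methyltransferase, 6093 and 8196 (0.19). NIPBL, the cohesin loader, had the highest value of the list, 0.74. Each difference in this list was below 2-fold.

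Among 25 genes for processing and signalling, 21 were tested, 1 was higher and 1 was lower. Over all tested genes 3.39% were called in each direction. FYN, a kinase of the Src family, rose from 651 to 1773 reads, a log2 fold change of 1.21 (1.08 to 1.34). APH1B, a subunit of some gamma-secretase complexes, which cut protocadherins in the membrane, fell from 115 to 55 reads, a log2 fold change of -1.29 (-1.79 to -0.83). The median of this list was 0.19. PTK2B, a kinase bound by protocadherin cytoplasmic domains, had 4678 and 7641 reads (0.47), and PTK2 had 102 and 114 (-0.08). ADAM10, which sheds the extracellular part, had 1198 and 1790 reads (0.34).

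The protocadherins and related cadherins outside the clusters were hardly used. Of 17 such genes, 9 had 0 reads in both libraries and 3 were tested, too few to set beside the 6.78% called over all tested genes. PCDH12 was called higher, from 3 to 16 reads, with an interval of the log2 fold change from 0.37 to 4.60. PCDH9 had 9 and 2 reads and CDHR2 had 3 and 7, and neither was called. The list held 31 and 37 reads in all, against 498 and 548 of the gamma cluster. Of 23 classical and type II cadherins and catenins, 4 were tested and 0 were called. CTNNB1, the catenin beta-1 gene, had 1709 and 2053 reads (0.03), and CTNNA1 had 1131 and 1074 (-0.31).

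Active genes lay on both sides of the clusters, but not every listed neighbour was active. CD14, before the alpha cluster, had 4 (Vector) and 5 reads, and SLC25A2, between beta and gamma, had 0 and 1. PCDH1, after the gamma cluster, had 0 in both libraries. Of 24 listed neighbours on chromosome 5, 21 were in the table, 18 were tested and 1, PCDH12, was called. Over all tested genes 6.78% were called. PCDH12, at 3 and 16 reads, is the gene already given among the non-clustered protocadherins. The median log2 fold change of the tested neighbours was 0.08. TAF7, a TFIID subunit gene that lies between the beta and gamma clusters on the opposite strand, had 1255 and 2318 reads, a log2 fold change of 0.65 (0.55 to 0.75). DIAPH1, which encodes a formin and follows the gamma cluster on the opposite strand, had 5489 and 8279 reads (0.36). ZMAT2, before the alpha cluster, had 1749 and 1746 reads (-0.24). Between ZMAT2 and TAF7, the alpha cluster was at 4 and 0 reads.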

How the data were processed

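There was 1 RNA-seq library of MOLM-13 cells per group. According to the methods, the VAHTS Universal V6 kit and an Illumina HiSeq platform were used and reads were compared with GRCh38. The submitters' processing notes name bcl2fastq 2.19, HISAT2 2.0.4 and StringTie 1.3.0. The annotation, the strand setting and the treatment of shared reads are not given in the sources used here. The authors deposited whole-number read counts per gene, without normalization, and FPKM values. Dividing each count by its FPKM gave a between-library ratio of 1.139 to 1.140, against 1.140 for the totals, so the deposited FPKM are scaled to counted reads.

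TMM factors (0.984 and 1.02) came from edgeR 4.0.16 in R 4.3.3. A gene entered the test with 10 or more reads summed over the libraries, and log2 fold changes had 0.5 reads added. A gene was called at 2-fold and an adjusted p-value under 0.05 (exact binomial test on reads, scipy 1.17.1, Benjamini-Hochberg over all 15384 genes). Intervals are 95% Clopper-Pearson. With 1 library per group, edgeR's quasi-likelihood test could not be fitted. The procedure was tested on simulated counts. Exons came from GENCODE 44, which held 49659 of the 50868 gene identifiers. Variable exons were compared with Biopython 1.88.

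The members and lists were chosen with earlier results of these data known. Named were UNC5B, members with at least 10 reads, and called or most abundant list genes; others were named after their values were seen. Alternatives were other scalings (library totals, DESeq2 1.42.0), FPKM, reads added, filters, folds and assumed variation.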

Additional observations from a re-analysis of the deposited data

How the results depend on the processing

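PCDHGB7 was called higher under each alternative that kept gamma genes apart, also where edgeR's exact test was run with a coefficient of variation set to 0.4. The count of lower genes was 2 (PCDHGC3 and PCDHGB6), and 1 under 4 settings. This was PCDHGC3 with at least 50 reads or with FPKM and 0.1 added, where PCDHGB6 was not tested, and PCDHGB6 with a 4-fold threshold or an assumed coefficient of variation of 0.2, where PCDHGC3 lost its call. It was 3 with the fold alone, which added PCDHGA6, and with a 1.5-fold threshold, which added PCDHGA11. It was 0 with a coefficient of 0.4 or with FPKM and 1 added, where PCDHGC3 had -0.66. With gamma rows summed to 1 row, a choice made after seeing the data, 0 genes were higher and 0 lower.

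The log2 fold change of the gamma sum, -0.10, was -0.05 with library totals and -0.06 with DESeq2 size factors. It was 0.68 without PCDHGC3, 0.28 with summed FPKM, 0.72 for A and B genes alone, -1.35 for C genes alone and, chosen after seeing the data, -0.93 without PCDHGB7. The beta sum, -0.18, was -0.84 without PCDHB13. For all 54 genes, -0.11 became 0.60 without PCDHGC3, 0.22 with summed FPKM and -0.90 without PCDHGB7. By construction, these sums leave out genes or divide by other lengths; the other changes' cause was not tested. With the fold alone, 1 non-clustered protocadherin was lower. The fitted value of PCDHGB7 depends on what is added to its 0, and was 1.60 with 1 added to FPKM and 4.41 with 0.1 added.

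No paired analysis was possible because each group is a single library, which also leaves no replicate to omit. Depth limits the alpha and beta clusters, where 30 of 32 genes were below 10 reads.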
